A study of Homo sapiens with 21 samples.

Results

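The genes described here encode the secreted and membrane-bound guidance cues of growing axons and their receptors. The rule reads gene symbols and no measured value, although the set was proposed with earlier results of these data known. It takes semaphorins of classes 3 to 7, plexins, neuropilins, ephrins, Eph receptors, Slits, Robo receptors, netrins, UNC5 receptors and DCC, leaving out symbols with a hyphen. The rule found 69 of the 62699 genes in the count table: 20 semaphorins, 9 plexins, 2 neuropilins, 8 ephrins, 14 Eph receptors, 3 Slits, 4 Robo receptors, 4 netrins, 4 UNC5 receptors and DCC. RNA came from islets that were differentiated in culture from H1, a human embryonic stem cell line. The labels give 4 genotypes: unedited (WT), ISL1-/-, PAX6-/- and PDX1-/-. On day 11 every culture received a lentivirus, either a control encoding only blue fluorescent protein (BFP) or one encoding ISL1 joined to BFP by an internal ribosome entry site. Transduced cells, recognised by their BFP, were collected by flow cytometry on day 18. The 21 libraries form 8 groups of biological replicates (in the series' words), of which both WT groups and the PDX1-/- group given ISL1 hold 2 and the other 5 hold 3. No group was left without virus, and how many edited clones stand behind each knockout is not given in the sources used here.

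Guidance cues steer a growth cone toward or away from their source. Class 3 semaphorins are secreted and signal through neuropilins paired with plexin A receptors, while class 4 to 7 semaphorins mostly bind plexins directly. Netrins attract through DCC and repel through UNC5 receptors, Slits repel through Robo receptors, and ephrins signal in both directions with the Eph receptor tyrosine kinases of touching cells. The same genes are used outside the nervous system, in the branching, sorting and innervation of the pancreas. ISL1, PAX6 and PDX1 are homeodomain transcription factors of pancreatic endocrine development.

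Libraries held 36807615 to 60199880 counts. Mitochondrial genes took 3.16% of the counts in replicate 3 of PAX6-/- with ISL1, 3.84% in replicate 4 of PDX1-/- with ISL1 and 1.28% to 1.93% in the other 19 libraries, so the main counts of genes below are also given without that pair of libraries. Without that pair PDX1-/- with ISL1 holds a single library, so virus effects in PDX1-/- are then given without a p-value. The mean virus effect and the test across the 8 groups rest in part on that library. ISL1 stood at 306 and 518 CPM (counts scaled to the normalised library size) in WT with BFP, at 73.7 to 82.4 in ISL1-/- with BFP and at 71.5 to 96.7 in ISL1-/- with ISL1. Gene-level ISL1 counts therefore did not separate the libraries labelled with the ISL1 virus, and PAX6 and PDX1 counts did not separate PAX6-/- or PDX1-/- (PAX6 at 99.5 to 166 CPM against 140.0 and 232 in WT with BFP, PDX1 at 103 to 116 CPM against 80.0 and 102). General endocrine genes, among them CHGA and SCG2, summed to 11300 to 52200 CPM in every group. The neuron list of 9 genes summed to 310.0 to 1430 CPM, with STMN2 at 124 to 734 CPM but PRPH at 0.0622 to 0.566. The mesenchyme list of 8 genes summed to 1630 to 1870 CPM in WT with ISL1 and from 91.5 to 1230 in the other groups. The glial and neural crest list of 5 genes never passed 1.22 CPM in sum, with SOX10 at 0 counts in 5 libraries. The part of other cell types in the results below was not tested, and in bulk RNA fewer cells of a type and less RNA per cell cannot be told apart.

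Most of the guidance genes were expressed. Compared per kilobase of exon, 47 of the 69 had a mean level of at least 1 CPM per kb, and 5 had less than 0.1 (SEMA7A, SEMA4A, NTN5, PLXNB3 and ROBO4, the endothelial Robo receptor, which was not tested). The highest mean level was that of PLXNB2, a receptor of class 4 semaphorins, at 41.1 CPM per kb (lowest library 10.6, highest 55.5). EFNB2, a membrane-bound ephrin, followed at 20.9 CPM per kb (4.23 to 33.9), then PLXNB1 at 14.8 (2.32 to 23.9), SEMA6A, a membrane-bound semaphorin, at 10.8 (2.48 to 19.7) and EFNA4, a lipid-anchored ephrin, at 10.5 (4.79 to 23.8). The ranges of these 5 overlapped, so their order is that of the means only. Of the exon bases of EFNB2, 36.4% are shared with another gene on the opposite strand, and the strand setting of the counts is not given. None of PLXNB2, EFNB2, PLXNB1 and SEMA6A differed across the 8 groups by edgeR's quasi-likelihood test (adjusted p = 0.906, 0.484, 0.49 and 0.827), but PLXNB1 and SEMA6A passed without both high-mitochondrial libraries (0.00505 and 0.0127).

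**Figure D1:**
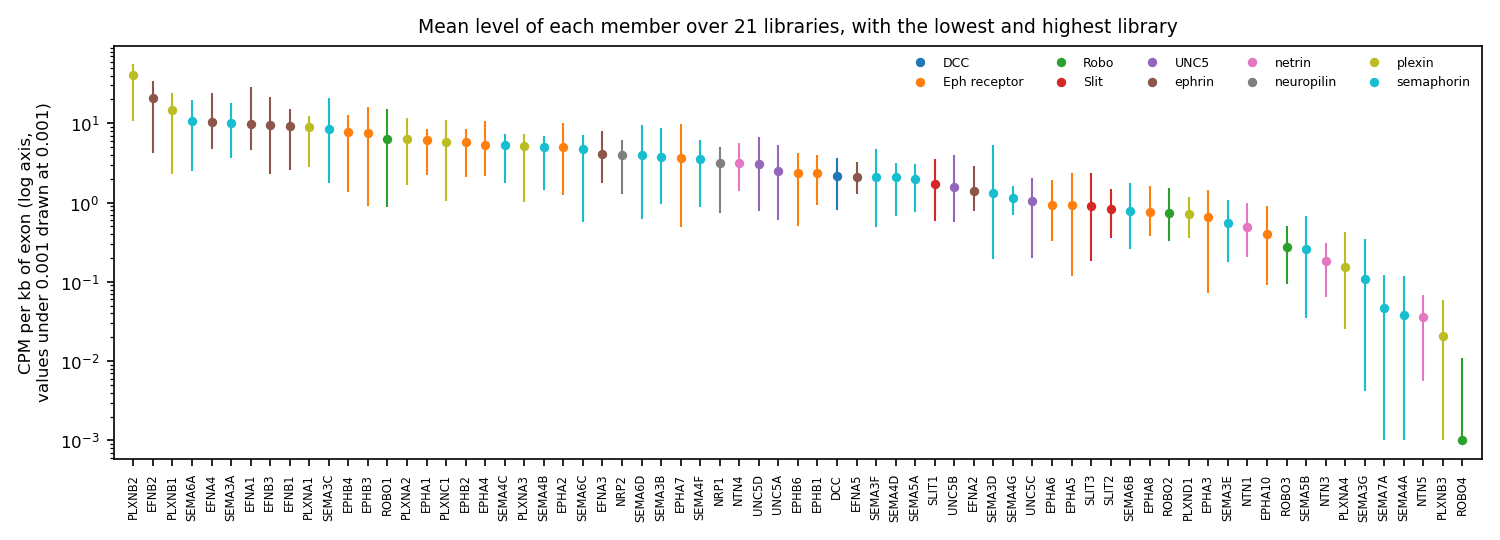
Mean level of each of the 69 guidance genes over 21 libraries, in CPM per kilobase of exon on a log axis, with a line from the lowest to the highest library and a colour per family. Levels run from 41.1 CPM per kb for PLXNB2 down to 0.000773 for ROBO4, and 47 genes lie at or above 1.

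The libraries of these abundant genes show where the spread lay. PLXNB2 stood at 287 and 235 CPM in WT with BFP, at 346, 347 and 295 in ISL1-/-, at 308, 343 and 298 in PAX6-/- and at 350.0, 199 and 308 in PDX1-/-, all with BFP. PLXNB2 with the ISL1 virus stood at 403 and 295 CPM in WT, at 380.0, 353 and 324 in ISL1-/-, at 308, 338 and 77.1 in PAX6-/- and at 391 and 91.7 in PDX1-/-. The values of 77.1 and 91.7 CPM belong to the pair of libraries with the high mitochondrial shares, and every other library lay between 199 and 403. PLXNB1 was lowest in the same pair, at 40.0 and 22.7 CPM, followed by WT with BFP at 52.8 and 45.7 and 1 library of PDX1-/- with BFP at 64.1, while the other libraries of the knockouts with BFP held 142 to 224. SEMA6A was at 27 CPM in replicate 3 of PAX6-/- with ISL1 and at 49.8 to 215 in all others, and EFNB2 at 21.2 CPM in that library against 56.1 to 169 elsewhere.

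Across the 8 groups, 32 of the 68 tested guidance genes differed (adjusted p under 0.05), against 22.5% of all 25884 genes tested. All 4 UNC5 receptors and DCC were among them, with 9 of 14 Eph receptors, 8 of 20 semaphorins, 4 of 8 ephrins, 2 of 9 plexins, and 1 gene each of the netrins, neuropilins, Slits and tested Robo receptors. The lowest adjusted p-values were those of EPHA4 (1.39e-05), UNC5D (2.52e-05), UNC5C (4.42e-05), NTN1 (0.000181) and SEMA3B (0.000255). Without both high-mitochondrial libraries, 62 genes passed, against 48.5% of all genes. The count was 21 without replicate 1 or 3 of PAX6-/- with BFP or replicate 3 of PDX1-/- with BFP. No count is given without replicate 2 of PDX1-/- with ISL1, since that group then holds a high-mitochondrial library alone.

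Knockout of each factor was compared with WT among libraries with BFP, so these 3 comparisons share both WT libraries. In ISL1-/-, the receptor genes UNC5C and UNC5D moved in opposite directions, SEMA3B and SEMA3D fell, and NTN1 and SEMA6B rose. These 6 genes compare with 5.59% of all genes tested (1.67% higher and 3.92% lower), and the median log2 fold change of the guidance genes was 0.21 against 0.02 over all genes. PAX6-/- had 7 guidance genes higher (UNC5D, SEMA6B, PLXNA4, EFNB3, EPHA4, EPHA5 and EPHA10) and SEMA3B lower, against 5.51% of all genes (2.25% higher and 3.26% lower), with medians of 0.37 and 0.03. In PDX1-/-, UNC5D, SEMA6B, SEMA6D and EFNA3 were higher and SEMA3B, EPHA2, EPHA6 and NRP2 lower, against 9.68% of all genes (4.03% higher and 5.65% lower), with medians of -0.08 and 0.03. SEMA3B was lower and UNC5D and SEMA6B higher in each of the 3 knockouts. Without the pair of high-mitochondrial libraries, which lie outside these groups but share the estimate of the spread, 29, 30 and 32 guidance genes passed in ISL1-/-, PAX6-/- and PDX1-/-, against 23.5%, 23.5% and 27.6% of all genes.

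Single libraries moved these counts. The share of all genes called in fits that leave out 1 library is not given above or below. Such counts therefore show no shift particular to the guidance genes. Leaving out either library of WT with BFP also leaves a single library in that group. Without replicate 1 of WT with BFP, 3 guidance genes passed in ISL1-/-, 1 in PAX6-/- and 2 in PDX1-/-. Leaving out replicate 3 of WT with BFP left 2 in PAX6-/- and 4 in PDX1-/-. Among knockout libraries, replicates 1 and 3 of PAX6-/- left 2 and 3 genes, and replicates 2 and 3 of PDX1-/- left 4 each. Leaving out replicate 2 or 4 of PDX1-/- with ISL1 raised the counts to 12 and 11 in ISL1-/- and to 15 in both PAX6-/- and PDX1-/-, and leaving out replicate 3 of PAX6-/- with ISL1 raised that of ISL1-/- to 11.

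Direct comparison of the knockouts, again among libraries with BFP, found EPHA4, PLXNA4 and SEMA3A higher in PAX6-/- than in ISL1-/- and than in PDX1-/-. Between ISL1-/- and PAX6-/-, UNC5C, UNC5A and EPHA8 were also lower in ISL1-/- and NTN1 higher, which made 7 guidance genes against 2.46% of all genes (0.757% higher and 1.7% lower in ISL1-/-). Between ISL1-/- and PDX1-/-, UNC5C was lower and NTN1 higher in ISL1-/-, and these 2 genes compare with 5.07% of all genes (2.73% higher and 2.34% lower). PAX6-/- against PDX1-/- gave 9 genes, against 3.04% of all genes (1.52% higher and 1.52% lower): SEMA5A, SEMA5B, SEMA3B, PLXNA2 and NRP2 were also higher in PAX6-/- and EFNA5 was lower. The median log2 differences of the guidance genes were -0.27, 0.07 and 0.37, against -0.01, -0.02 and 0.02 over all genes. Without both high-mitochondrial libraries the counts were 19, 27 and 29, against 8.74%, 21.7% and 16.3% of all genes.

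These counts moved with single libraries too. Between ISL1-/- and PAX6-/- they were 3 or 4 without any 1 library of ISL1-/- with BFP or without replicate 1 or 3 of PAX6-/- with BFP. Between ISL1-/- and PDX1-/- they were 1 without replicate 1 of ISL1-/- or replicate 3 of PDX1-/- with BFP, 9 without replicate 3 of PAX6-/- with ISL1, and 8 and 7 without replicates 2 and 4 of PDX1-/- with ISL1. Between PAX6-/- and PDX1-/- they were 2 to 5 without any 1 library of PAX6-/- with BFP or without replicate 2 or 3 of PDX1-/- with BFP, and 15 or 16 without replicate 3 of PAX6-/- with ISL1 or either library of PDX1-/- with ISL1.

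The ISL1 virus was compared with BFP within each genotype. In WT no guidance gene passed edgeR's test (5 had an unadjusted p under 0.05 and DESeq2 called no member either), against 0.027% of all genes. In ISL1-/- UNC5C rose, in PAX6-/- UNC5D fell, and these single genes compare with 0.382% and 0.355% of all genes (0.251% higher in ISL1-/- and 0.185% lower in PAX6-/-). In PDX1-/- 10 guidance genes passed, against 12.5% of all genes (8.19% higher and 4.33% lower): UNC5C, EPHA6, SEMA3B, SEMA4G and EFNA4 rose, and UNC5D, SEMA6D, SEMA4F, EFNA3 and SEMA3A fell. The median log2 differences of the guidance genes were 0.4, 0.1, -0.34 and -0.23 in WT, ISL1-/-, PAX6-/- and PDX1-/-, against 0.0, 0.03, 0.11 and 0.13 over all genes. Without both high-mitochondrial libraries 4, 11 and 8 guidance genes passed in WT, ISL1-/- and PAX6-/-, against 1.32%, 4.93% and 4.97% of all genes. No count is given for PDX1-/-, where a single library with ISL1 was left. In ISL1-/- and PAX6-/- a block for the number in the sample description gave 4 (EPHA4, EPHA6, UNC5C and UNC5D) and 5 (SEMA4F, EPHA3, EPHA6, UNC5D and EFNB3), against 1.87% and 2.23% of all genes. Only replicate 4 of PDX1-/- with ISL1 has its number, so that block fits this high-mitochondrial library by itself. A block for the number in the title, which is the same in ISL1-/- and PAX6-/-, gave 3 (EPHA4, EPHA6 and UNC5C) and 1 (UNC5D), against 0.464% and 0.352% of all genes. The higher counts of the first block therefore do not show pairing within these genotypes.

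The PDX1-/- comparison rests on 2 libraries with ISL1 that differed widely. Leaving out either of them leaves a single library in that group, so no count is given for those fits. The comparison gave 6, 5 and 4 genes without replicates 1, 2 and 3 of PDX1-/- with BFP. Without replicate 3 of PAX6-/- with ISL1 it gave 17. The ISL1-/- count was 4 or 5 without replicate 3 of PAX6-/- with ISL1 or either library of PDX1-/- with ISL1, and that of PAX6-/- was 3 without replicate 2 or replicate 4 of PDX1-/- with ISL1 and 0 in 15 of the 21 fits that each left out 1 library.

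The mean of the 4 virus effects, an average added after the data were examined, was called for 12 guidance genes, against 9.61% of all genes (5.31% higher and 4.3% lower). UNC5C, EPHA6, EPHA7, SEMA3B, SEMA3C, SEMA4G, EFNA4 and ROBO3 rose, and UNC5D, EPHA3, EPHB1 and SEMA4F fell. Of these, 7 passed in all 21 fits that left out 1 library (UNC5C, UNC5D, EPHA6, EPHA3, EFNA4, SEMA4F and ROBO3). Without both high-mitochondrial libraries 27 passed, against 23.5% of all genes, resting in part on a single library of PDX1-/- with ISL1. The difference of the virus effect between a knockout and WT was called for no guidance gene in ISL1-/- or PAX6-/- by edgeR (4 and 9 had an unadjusted p under 0.05, DESeq2 called 1 and 0) and for UNC5D in PDX1-/-, against 0.00386%, 0.0% and 1.19% of all genes. In PDX1-/- that count was 5 without replicate 3 of PAX6-/- with ISL1.

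**Figure D2:**
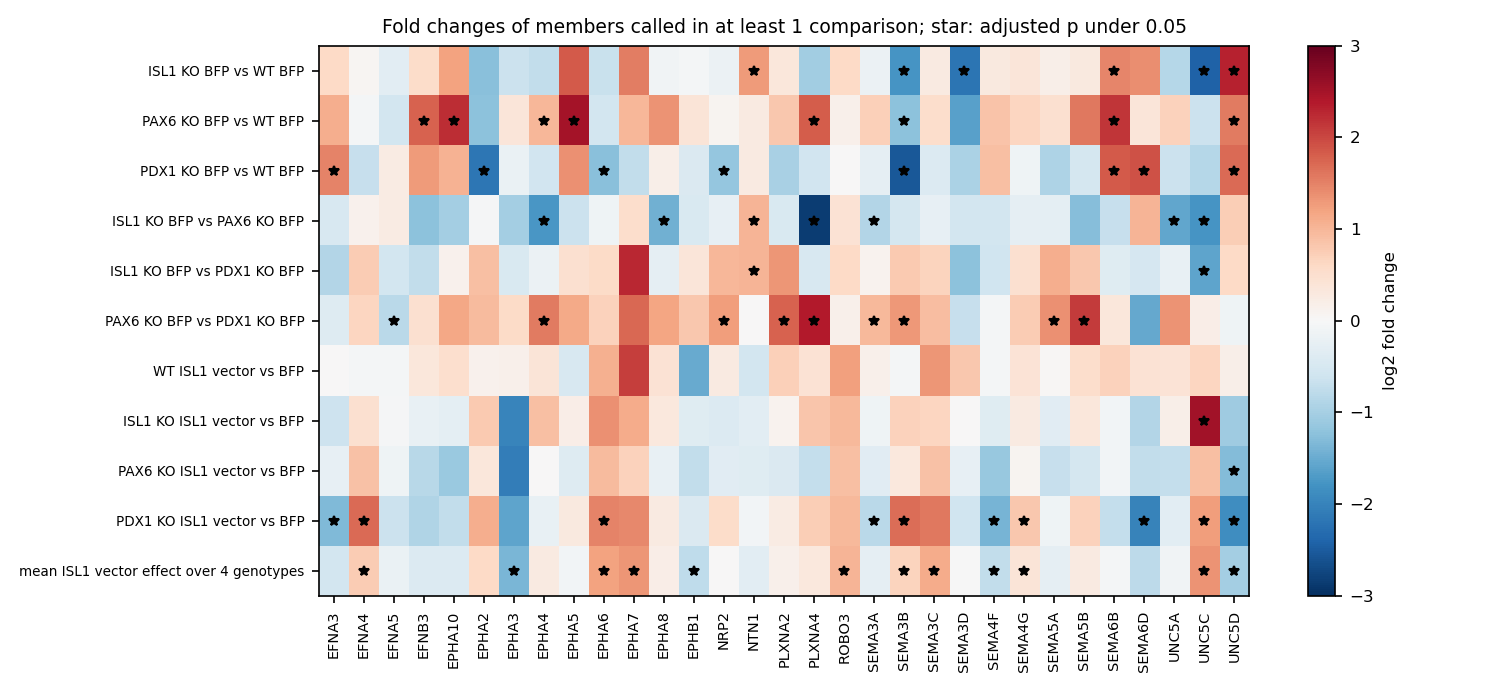
Log2 fold changes of the guidance genes that passed in at least 1 comparison (columns) in the 10 pairwise comparisons and the mean virus effect (rows), red for higher and blue for lower in the first group (KO stands for -/- and vector for virus), with a star for adjusted p under 0.05. UNC5D and SEMA6B are starred in all 3 comparisons of a knockout with WT and SEMA3B is starred in blue there, and the row of WT with ISL1 against WT with BFP holds no star.

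Netrin receptors of the UNC5 family come first. UNC5C (chr4:95162504-95549206, minus strand, GRCh38), a repulsive netrin receptor, stood at 14.9 and 10.5 CPM in WT with BFP, at 2.16, 2.65 and 2.24 in ISL1-/-, at 5.81, 11.4 and 7.01 in PAX6-/- and at 9.07, 5.48 and 6.57 in PDX1-/-. The ISL1-virus libraries had UNC5C at 18.8 and 20.8 CPM in WT, at 12.5, 13.7 and 14.6 in ISL1-/-, at 15.0, 15.7 and 14.8 in PAX6-/- and at 11.7 and 22.1 in PDX1-/-. ISL1-/- with BFP held the 3 lowest values of all 21 libraries, and in every genotype the libraries with ISL1 lay above those with BFP. The log2 fold change of UNC5C in ISL1-/- against WT was -2.43 (SE 0.31, adjusted p = 0.000173). UNC5C was also lower in ISL1-/- than in PAX6-/- (-1.78, SE 0.28, adjusted p = 0.00144) and than in PDX1-/- (-1.58, SE 0.28, adjusted p = 0.0031). UNC5C was higher with the ISL1 virus by 2.53 (log2, SE 0.29, adjusted p = 0.000349) in ISL1-/-, and these 4 calls passed in all 21 fits that left out 1 library.

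In the other genotypes the virus effect on UNC5C was 1.26 in PDX1-/- (SE 0.30, adjusted p = 0.013), 0.91 in PAX6-/- (adjusted p = 0.222) and 0.64 in WT (adjusted p = 1.0). The call in PDX1-/- was lost without replicate 2 or 3 of PDX1-/- with BFP or replicate 4 of PDX1-/- with ISL1. The effect was 0.76 without both high-mitochondrial libraries, with a single library of PDX1-/- with ISL1 left. The mean virus effect on UNC5C was 1.34 (SE 0.15, adjusted p = 2.73e-05), higher in 4 of 4 genotypes. The effect in ISL1-/- minus that in WT was 1.89 (SE 0.43, adjusted p = 0.582), and 1.86 with adjusted p = 0.0389 without the pair of high-mitochondrial libraries.

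UNC5D (chr8:35235475-35796550, plus strand), another UNC5 receptor, ran the opposite way. It stood at 15.1 and 12.7 CPM in WT with BFP, at 60.7, 72.8 and 72.7 in ISL1-/-, at 52.1, 34.0 and 37.8 in PAX6-/- and at 50, 35.8 and 49.9 in PDX1-/-. UNC5D was, under the ISL1 virus, at 18.7 and 12.9 CPM in WT, at 29.7, 32.5 and 36.6 in ISL1-/-, at 16.1, 21.0 and 12.9 in PAX6-/- and at 16.2 and 8.41 in PDX1-/-. All 9 knockout libraries with BFP lay above both WT libraries, and within each knockout the libraries with ISL1 lay below those with BFP, whereas the WT groups overlapped. The log2 fold change of UNC5D against WT was 2.31 in ISL1-/- (SE 0.32, adjusted p = 0.00036), 1.57 in PAX6-/- (SE 0.31, adjusted p = 0.00677) and 1.70 in PDX1-/- (SE 0.31, adjusted p = 0.00224). The call in PAX6-/- was lost without either WT library with BFP (adjusted p up to 0.115), and the other calls passed in all 21 fits that left out 1 library.

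With the ISL1 virus UNC5D differed by -1.87 in PDX1-/- (log2, SE 0.31, adjusted p = 0.0015) and by -1.31 in PAX6-/- (SE 0.26, adjusted p = 0.0367), and its effect in ISL1-/- was -1.06 (SE 0.26, adjusted p = 0.101) and in WT 0.18 (adjusted p = 1.0). In ISL1-/- it passed with the block by description number (adjusted p = 0.0229) but not with that by title number. The PDX1-/- call passed in all 21 fits that left out 1 library. Without the high-mitochondrial libraries the effect was -1.45 in PDX1-/-, from a single library with ISL1, and -1.17 in PAX6-/- (adjusted p = 0.00617). The mean virus effect on UNC5D was -1.02 (SE 0.14, adjusted p = 0.000265), with 3 of 4 genotypes lower. In the fit of all 21 libraries, the virus effect on UNC5D in PDX1-/- differed from that in WT by -2.06 (SE 0.44, adjusted p = 0.0299), a call lost without any 1 of the 4 WT libraries, without replicate 1 or 3 of PDX1-/- with BFP, or without replicate 4 of PDX1-/- with ISL1 (adjusted p up to 0.257). Left without the high-mitochondrial pair, that difference was -1.63, from a single library of PDX1-/- with ISL1. In the same fit the differences between ISL1-/- and WT passed for UNC5C (1.86, adjusted p = 0.0389) and SEMA6D (-1.35, adjusted p = 0.0415).

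UNC5A and UNC5B, the remaining members of that receptor family, and DCC each differed across the 8 groups (adjusted p = 0.0252, 0.000476 and 0.0149). UNC5A was lower in ISL1-/- (7.79, 6.32 and 5.78 CPM) than in PAX6-/- (23.1, 15.1 and 20.6 CPM), both with BFP. The groups did not overlap and the log2 difference was -1.56 (SE 0.39, adjusted p = 0.0414), lost in 12 of the 21 fits that left out 1 library (adjusted p = 0.000973 without both high-mitochondrial libraries). UNC5B was highest in WT with ISL1, at 26.2 and 27.3 CPM against 15.9 and 13.4 in WT with BFP, and lay between 3.94 and 11.7 in all 17 knockout libraries. No pairwise comparison of the 21 libraries called UNC5B or DCC, but without both high-mitochondrial libraries UNC5B was lower than in WT in all 3 knockouts (-0.85, -0.57 and -0.55 in ISL1-/-, PAX6-/- and PDX1-/-, adjusted p = 0.00175, 0.0225 and 0.0245) and DCC in ISL1-/- and PDX1-/- (-0.75 and -0.89, adjusted p = 0.0118 and 0.00304). DCC, the attractive netrin receptor, ranged from 10.5 CPM in PDX1-/- with ISL1 to 47.8 in PAX6-/- with BFP.

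Of the ligands, NTN1 (netrin 1, chr17:9021510-9244000, plus strand) stood at 2.44 and 2.15 CPM in WT with BFP, at 6.25, 5.27 and 5.16 in ISL1-/-, at 3.24, 2.75 and 2.31 in PAX6-/- and at 3.09, 2.7 and 2.47 in PDX1-/-. Libraries given ISL1 held 1.83 and 1.33 CPM of NTN1 in WT, 4.51, 4.10 and 4.86 in ISL1-/-, 2.19, 1.92 and 2.37 in PAX6-/- and 2.75 and 2.40 in PDX1-/-. The 6 ISL1-/- libraries were the 6 highest. NTN1 was higher in ISL1-/- with BFP than in WT by 1.28 (log2, SE 0.24, adjusted p = 0.00417), than in PAX6-/- by 1.01 (SE 0.21, adjusted p = 0.0109) and than in PDX1-/- by 1.01 (SE 0.21, adjusted p = 0.00785). The call against WT was lost without replicate 3 of WT with BFP (adjusted p = 0.0849), and the others without replicate 1 of ISL1-/- or replicate 3 of the other knockout (adjusted p up to 0.0787 and 0.0541). NTN4, which binds laminins, had the highest level of the netrins, 3.12 CPM per kb against 0.49 for NTN1, 0.185 for NTN3 and 0.0364 for NTN5, and of those other netrins none was called with all 21 libraries. NTN4 was lower in ISL1-/-, PAX6-/- and PDX1-/- than in WT without both high-mitochondrial libraries (-0.76, -0.6 and -0.84, adjusted p = 0.0031, 0.0148 and 0.00108).

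**Figure D3:**
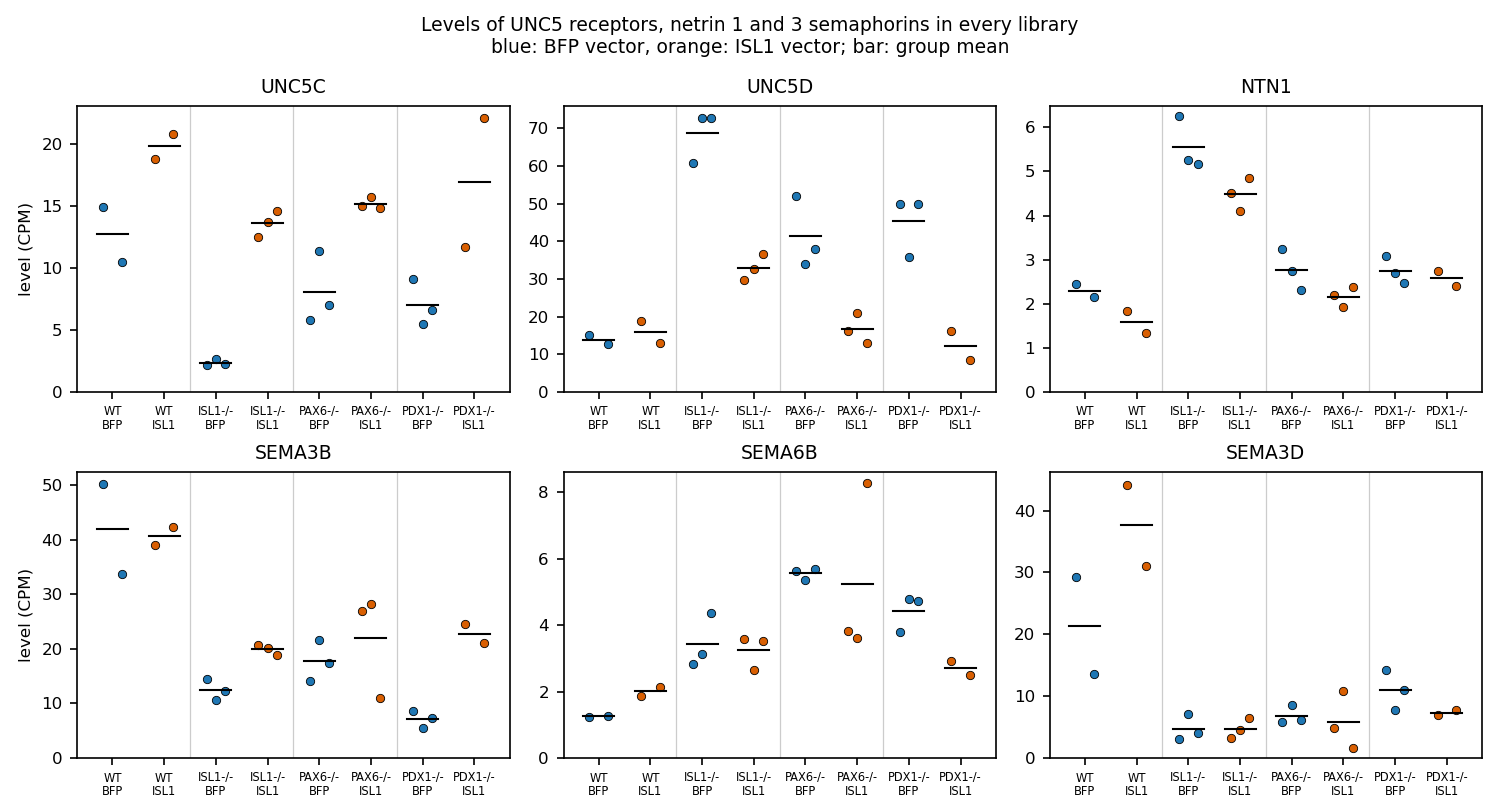
Levels of UNC5C, UNC5D, NTN1, SEMA3B, SEMA6B and SEMA3D in every library, in CPM, with blue points for BFP, orange points for the ISL1 virus and a bar at each group mean. UNC5C is lowest in ISL1-/- with BFP (2.16 to 2.65 CPM), where UNC5D and NTN1 are highest (60.7 to 72.8 and 5.16 to 6.25 CPM).

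SEMA3B (chr3:50267558-50277546, plus strand), a secreted semaphorin, was the only guidance gene called lower in all 3 knockouts with all 21 libraries. Without the high-mitochondrial pair others, such as UNC5B and NTN4, were also called lower in all 3. Levels of SEMA3B were 50.3 and 33.7 CPM in WT with BFP, 14.4, 10.6 and 12.2 in ISL1-/-, 14.2, 21.7 and 17.4 in PAX6-/- and 8.64, 5.54 and 7.32 in PDX1-/-. SEMA3B with the ISL1 virus stood at 39.0 and 42.3 CPM in WT, at 20.8, 20.2 and 18.9 in ISL1-/-, at 27, 28.2 and 11.0 in PAX6-/- and at 24.5 and 21.0 in PDX1-/-. All 4 WT libraries lay above all 17 knockout libraries, with either virus. The log2 fold change of SEMA3B against WT was -1.76 in ISL1-/- (SE 0.32, adjusted p = 0.00288), -1.24 in PAX6-/- (SE 0.32, adjusted p = 0.0289) and -2.55 in PDX1-/- (SE 0.32, adjusted p = 0.000234). In PDX1-/- this call passed in all 21 fits that left out 1 library, in ISL1-/- it was lost without replicate 1 of WT with BFP (adjusted p = 0.0698), and in PAX6-/- it was lost without either WT library or without replicate 1 or 3 of PAX6-/- with BFP (adjusted p up to 0.332).

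SEMA3B was also higher in PAX6-/- than in PDX1-/- (1.31, SE 0.29, adjusted p = 0.019, lost without replicate 2 of PAX6-/- or replicate 2 or 3 of PDX1-/- with BFP, up to 0.121). With the ISL1 virus SEMA3B was higher in PDX1-/- by 1.67 (log2, SE 0.32, adjusted p = 0.00386), in all 21 fits that left out 1 library. Its mean virus effect was 0.66 (SE 0.16, adjusted p = 0.0133), with 3 of 4 genotypes higher and -0.05 in WT, and was lost without replicate 3 of WT with BFP (adjusted p = 0.0611).

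SEMA6B (chr19:4542593-4581776, minus strand), a membrane-bound semaphorin and ligand of plexin A receptors, was low but rose in all 3 knockouts. Levels were 1.23 and 1.27 CPM in WT with BFP, 2.83, 3.12 and 4.37 in ISL1-/-, 5.64, 5.37 and 5.69 in PAX6-/- and 3.80, 4.79 and 4.72 in PDX1-/-. The ISL1-virus libraries had SEMA6B at 1.87 and 2.15 CPM in WT, at 3.59, 2.66 and 3.51 in ISL1-/-, at 3.84, 3.6 and 8.28 in PAX6-/- and at 2.91 and 2.49 in PDX1-/-. No knockout library fell to the range of WT with either virus. Its log2 fold change against WT was 1.46 in ISL1-/- (SE 0.34, adjusted p = 0.0165), 2.15 in PAX6-/- (SE 0.35, adjusted p = 0.00197) and 1.83 in PDX1-/- (SE 0.34, adjusted p = 0.00294). In ISL1-/- this was lost without either WT library or replicate 3 of ISL1-/- with BFP (adjusted p up to 0.156) and in PDX1-/- without replicate 1 of WT with BFP (0.0521), while the PAX6-/- call passed in all 21 fits.

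SEMA3D, a secreted semaphorin, stood at 29.2 and 13.5 CPM in WT with BFP, at 3.04, 7.08 and 4.00 in ISL1-/-, at 5.87, 8.55 and 6.13 in PAX6-/- and at 14.3, 7.79 and 11.0 in PDX1-/-. SEMA3D was, under the ISL1 virus, at 44.2 and 31.0 CPM in WT, at 3.26, 4.45 and 6.5 in ISL1-/-, at 4.81, 10.8 and 1.61 in PAX6-/- and at 6.88 and 7.70 in PDX1-/-. It was highest in WT, where the mesenchyme list was also highest with the ISL1 virus, and among the knockout groups only PDX1-/- with BFP overlapped WT with BFP. The fall in ISL1-/- against WT was -2.18 on the log2 scale (SE 0.55, adjusted p = 0.0256) and was lost without replicate 1 of WT with BFP or replicate 1 or 3 of ISL1-/- with BFP (adjusted p up to 0.322).

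SEMA6D, a membrane-bound semaphorin, stood at 21.8 and 17.8 CPM in WT with BFP, at 48.7, 59.1 and 47.8 in ISL1-/-, at 33.1, 21.5 and 21.5 in PAX6-/- and at 73.8, 67.5 and 80.5 in PDX1-/-. Libraries given ISL1 held 27.5 and 26.3 CPM of SEMA6D in WT, 27.1, 32.7 and 25.1 in ISL1-/-, 21.5, 18.6 and 5.39 in PAX6-/- and 31.5 and 5.24 in PDX1-/-. PDX1-/- with BFP held the 3 highest values, and the lowest values were those of the libraries with high mitochondrial shares. SEMA6D was higher in PDX1-/- than in WT by 1.90 (log2, SE 0.57, adjusted p = 0.0413), a call lost in 14 of the 21 fits that left out 1 library. With the ISL1 virus in PDX1-/- it differed by -2.00 (SE 0.57, adjusted p = 0.0297). That call was lost without replicate 4 of PDX1-/- with ISL1 or any 1 library of PDX1-/- with BFP. Without both high-mitochondrial libraries the difference was -1.20, from a single library of PDX1-/- with ISL1.

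SEMA4F, a membrane-bound semaphorin, stood at 18.0 and 18.7 CPM in WT with BFP, at 20.2, 20.4 and 27.3 in ISL1-/-, at 38.9, 25.1 and 35.4 in PAX6-/- and at 34.7, 31.7 and 37.0 in PDX1-/-. SEMA4F with the ISL1 virus stood at 19.0 and 16.4 CPM in WT, at 15.2, 17.5 and 19.9 in ISL1-/-, at 15.6, 17.0 and 12.9 in PAX6-/- and at 20.5 and 5.51 in PDX1-/-. In each knockout the libraries with ISL1 lay below those with BFP. The effect passed in PDX1-/- (-1.40, SE 0.37, adjusted p = 0.0227, lost without replicate 1 or 3 of PDX1-/- with BFP or replicate 4 with ISL1). It was -0.72 there without both high-mitochondrial libraries, from a single library with ISL1. In PAX6-/- the effect was -1.13 (adjusted p = 0.186), and it passed with the block by description number (adjusted p = 0.00741) but not with that by title number. The mean virus effect was -0.74 (SE 0.17, adjusted p = 0.0124), with 4 of 4 genotypes lower.

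Among the other secreted semaphorins, SEMA3A, the prototypical repulsive cue, was highest in PAX6-/- with BFP. It stood at 165, 142 and 138 CPM there, at 86.4, 84.9 and 69.7 in ISL1-/-, at 80.4, 71.0 and 73.8 in PDX1-/- and at 91.3 and 89.7 in WT. The difference between PAX6-/- and PDX1-/- was 0.98 (log2, SE 0.20, adjusted p = 0.00849) and that between ISL1-/- and PAX6-/- was -0.88 (SE 0.20, adjusted p = 0.0179). The former was lost without replicate 2 of PDX1-/- with BFP (adjusted p = 0.0568) and the latter without any library of ISL1-/- or replicate 1 of PAX6-/- (up to 0.115). With the ISL1 virus in PDX1-/- SEMA3A differed by -0.81 (SE 0.22, adjusted p = 0.0264), a call lost without any 1 library of PDX1-/- with BFP or replicate 4 with ISL1. The difference was -0.50 without both high-mitochondrial libraries, from a single library of PDX1-/- with ISL1.

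SEMA5B, a class 5 semaphorin, stood at 1.93 and 0.876 CPM in WT with BFP, at 1.68, 2.15 and 1.40 in ISL1-/-, at 3.80, 3.21 and 5.69 in PAX6-/- and at 1.35, 0.571 and 1.05 in PDX1-/-. The ISL1-virus libraries had SEMA5B at 2.20 and 1.85 CPM in WT, at 2.23, 2.04 and 2.38 in ISL1-/-, at 3.80, 2.64 and 2.33 in PAX6-/- and at 2.84 and 0.296 in PDX1-/-. PAX6-/- with BFP exceeded every library of PDX1-/- with BFP. That difference was 2.1 (log2, SE 0.53, adjusted p = 0.0374) and was lost in 13 of the 21 fits that left out 1 library (adjusted p = 0.000318 without both high-mitochondrial libraries). Its class 5 relative SEMA5A differed in the same comparison by 1.38 (SE 0.32, adjusted p = 0.0224), lost without any 1 library of PAX6-/- with BFP or replicate 2 or 3 of PDX1-/- with BFP (up to 0.138). SEMA4G rose with the ISL1 virus in PDX1-/- by 0.80 (SE 0.24, adjusted p = 0.0342), but 22.9% of its exon bases are shared with MRPL43 on the opposite strand. The mean virus effects on SEMA3C and SEMA4G were 1.11 (SE 0.31, adjusted p = 0.0317) and 0.39 (SE 0.12, adjusted p = 0.0399), lost in 13 and 15 of the 21 fits that left out 1 library. They were 1.41 (adjusted p = 2.12e-06) and 0.42 (adjusted p = 0.00834) without both high-mitochondrial libraries. The remaining 9 semaphorins (SEMA3E, SEMA3F, SEMA3G, SEMA4A, SEMA4B, SEMA4C, SEMA4D, SEMA6C and SEMA7A) and SEMA6A passed in none of these comparisons with all 21 libraries. Without the high-mitochondrial pair all of them but SEMA4A and SEMA7A passed in at least 1, for example SEMA6C, higher than in WT by 1.54, 1.77 and 1.39 in ISL1-/-, PAX6-/- and PDX1-/- (adjusted p = 4.6e-05, 1.25e-05 and 7.44e-05).

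Of the 9 plexins and 2 neuropilins, PLXNA4, PLXNA2 and NRP2 were called in a pairwise comparison. PLXNA4 (chr7:132123340-132648688, minus strand), a plexin that pairs with neuropilins, stood at 2.13 and 1.39 CPM in WT with BFP, at 1.01, 0.641 and 0.917 in ISL1-/-, at 5.43, 7.00 and 6.14 in PAX6-/- and at 1.85, 0.411 and 1.31 in PDX1-/-. PLXNA4 was, under the ISL1 virus, at 3.17 and 1.63 CPM in WT, at 1.46, 1.83 and 1.31 in ISL1-/-, at 2.93, 5.04 and 3.40 in PAX6-/- and at 2.73 and 1.16 in PDX1-/-. The 3 libraries of PAX6-/- with BFP were the 3 highest of the series. PLXNA4 was lower in ISL1-/- than in PAX6-/- by -2.85 (log2, SE 0.46, adjusted p = 0.00161) and higher in PAX6-/- than in PDX1-/- by 2.38 (SE 0.45, adjusted p = 0.00555), and both calls passed in all 21 fits that left out 1 library. Against WT its rise in PAX6-/- was 1.81 (SE 0.51, adjusted p = 0.0465), lost in 15 of those 21 fits, with adjusted p = 0.0075 without both high-mitochondrial libraries.

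PLXNA2, a receptor of class 3 and class 6 semaphorins, stood at 62.7 and 83.5 CPM in WT with BFP, at 69.0, 89.6 and 121 in ISL1-/-, at 146, 104 and 135 in PAX6-/- and at 44.3, 25.3 and 42.5 in PDX1-/-. Libraries given ISL1 held 162 and 79.0 CPM of PLXNA2 in WT, 75.3, 89.4 and 137 in ISL1-/-, 110.0, 119 and 53.8 in PAX6-/- and 65.9 and 23 in PDX1-/-. PDX1-/- with BFP lay below every other group with BFP. The difference between PAX6-/- and PDX1-/- was 1.78 (log2, SE 0.41, adjusted p = 0.0216). NRP2, a neuropilin, was also lowest in PDX1-/- among the groups with BFP, at 42.3, 17.7 and 30.1 CPM against 71.8 and 63.2 in WT, 53.5, 62.7 and 63.7 in ISL1-/- and 64.2, 77.8 and 72.6 in PAX6-/-. It was lower in PDX1-/- than in WT by -1.17 (SE 0.33, adjusted p = 0.0313) and higher in PAX6-/- than in PDX1-/- by 1.25 (SE 0.30, adjusted p = 0.0289). These 3 calls all failed without replicate 2 or 3 of PDX1-/- with BFP, among others, with adjusted p up to 0.133, 0.226 and 0.159.

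Of the 14 Eph receptors, 6 were called in a pairwise comparison. To show the sequence upstream of the 2 whose levels separated the groups most by the test across 8 groups, the 250 bases before an annotated start are printed from RefSeq's promoter table (GRCh38.p14), each on its gene's strand, with the core letters TAAT, which homeodomain proteins can bind, and their reverse complement ATTA in capitals. EPHA4 lies at chr2:221574203-221574452 on the minus strand, directly before the start in the count table, and EPHA6 at chr3:96814344-96814593 on the plus strand.
EPHA4: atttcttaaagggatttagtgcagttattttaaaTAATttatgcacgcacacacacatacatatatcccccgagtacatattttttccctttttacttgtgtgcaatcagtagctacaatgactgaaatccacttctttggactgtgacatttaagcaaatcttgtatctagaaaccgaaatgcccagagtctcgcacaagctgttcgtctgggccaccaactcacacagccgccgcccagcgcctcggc
EPHA6: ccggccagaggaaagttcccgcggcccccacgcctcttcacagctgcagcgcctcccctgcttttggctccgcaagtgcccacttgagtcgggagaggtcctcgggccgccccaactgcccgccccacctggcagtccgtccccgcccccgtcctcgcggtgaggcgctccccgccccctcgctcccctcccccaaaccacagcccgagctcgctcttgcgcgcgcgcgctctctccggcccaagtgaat
The EPHA4 window holds 1 match and 43.2% GC, and the EPHA6 window holds 0 matches and 72.4% GC. Both genes have another annotated start, whose window holds 0 matches for EPHA4 and 4 for EPHA6. Either strand of TAAT was found in 47.4% of all 35116 windows of this length, in 24 of the 59 guidance genes with a window (40.7%) and in 11 of the 20 that have a window among the 26 called in a pairwise comparison. The first share is per window, whereas a gene counts if any of its windows matches, and the 59 genes have 91 windows. The shares are therefore not on the same scale, and these matches are a description of letters only.

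EPHA4 (chr2:221418027-221574202, minus strand), a receptor that binds ephrins of both the A and B classes, stood at 27.7 and 41.1 CPM in WT with BFP, at 21.9, 21.4 and 17.9 in ISL1-/-, at 81.5, 59.0 and 63.9 in PAX6-/- and at 26.3, 23.9 and 19.0 in PDX1-/-. EPHA4 with the ISL1 virus stood at 46.9 and 43.3 CPM in WT, at 37.8, 39.4 and 37.6 in ISL1-/-, at 78.2, 66.4 and 63.0 in PAX6-/- and at 23 and 16.4 in PDX1-/-. All 6 PAX6-/- libraries lay above all 15 others. EPHA4 was higher in PAX6-/- than in WT by 0.99 (log2, SE 0.23, adjusted p = 0.019), than in PDX1-/- by 1.56 (SE 0.21, adjusted p = 0.000275), and lower in ISL1-/- than in PAX6-/- by -1.74 (SE 0.21, adjusted p = 9.07e-05). The comparisons between knockouts passed in all 21 fits that left out 1 library, and that with WT was lost without replicate 1 of WT or of PAX6-/- with BFP (adjusted p up to 0.299). In ISL1-/- the virus effect on EPHA4 was 0.91 (SE 0.20, adjusted p = 0.066). Its adjusted p was 0.0167 and 0.0475 with the blocks by description and by title number, and 0.0035 without both high-mitochondrial libraries.

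EPHA6 (chr3:96814581-97761532, plus strand), a receptor of A-class ephrins, stood at 17.9 and 13.8 CPM in WT with BFP, at 12.6, 11.2 and 6.00 in ISL1-/-, at 10.1, 15.4 and 7.15 in PAX6-/- and at 7.02, 6.21 and 6.82 in PDX1-/-. The ISL1-virus libraries had EPHA6 at 31.2 and 34.9 CPM in WT, at 30.7, 25.2 and 20.7 in ISL1-/-, at 25.5, 24.4 and 13.4 in PAX6-/- and at 21.1 and 16.1 in PDX1-/-. The libraries with ISL1 lay above those with BFP in WT, ISL1-/- and PDX1-/-, and overlapped them in PAX6-/- through the library with 13.4 CPM, which has a high mitochondrial share. The virus effect was 1.06 in WT (adjusted p = 0.987), 1.36 in ISL1-/- (adjusted p = 0.0776), 0.96 in PAX6-/- (adjusted p = 0.269) and 1.48 in PDX1-/- (SE 0.34, adjusted p = 0.0118, in all 21 fits that left out 1 library). Blocking on the description number called this effect in ISL1-/- (1.40, adjusted p = 0.00452) and PAX6-/- (0.95, adjusted p = 0.0367). Blocking on the title number called it in ISL1-/- (1.41, adjusted p = 0.0154) but not in PAX6-/-. The mean virus effect on EPHA6 was 1.21 (SE 0.17, adjusted p = 0.000254), higher in 4 of 4 genotypes. Against WT, EPHA6 was lower in PDX1-/- by -1.25 (SE 0.34, adjusted p = 0.0281), a call lost without any 1 of the 5 libraries of those groups (up to 0.265).

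EPHA3, an A-class receptor, showed lower levels with the ISL1 virus in the knockouts. It stood at 3.01, 4.68 and 4.26 CPM with BFP and 0.479, 0.930 and 1.58 with ISL1 in ISL1-/-, and at 7.24, 9.53 and 7.52 against 2.07, 2.98 and 0.692 in PAX6-/-. In PDX1-/- EPHA3 stood at 8.74, 3.30 and 4.26 CPM against 1.90 and 1.72, and in WT at 8.72 and 3.75 against 6.38 and 7.46. The groups did not overlap in the 3 knockouts and overlapped in WT. None of the 4 effects passed alone (-1.99, -2.07, -1.58 and 0.15 on the log2 scale, adjusted p = 0.116, 0.102, 0.0747 and 1.0). That in PAX6-/- passed with the block by description number (-2.12, adjusted p = 0.0415) but not with that by title number. The mean of the 4 effects, -1.37 (SE 0.27, adjusted p = 0.00352), passed in all 21 fits that left out 1 library, and the difference of the effect in ISL1-/- or PAX6-/- from that in WT did not pass (adjusted p = 1.0 and 0.894).

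EPHA2, an A-class receptor of epithelia, stood at 41.9 and 29.9 CPM in WT with BFP, at 16.1, 15.4 and 13.4 in ISL1-/-, at 13.7, 20.3 and 12.1 in PAX6-/- and at 12.1, 5.20 and 6.53 in PDX1-/-. EPHA2 was, under the ISL1 virus, at 37.8 and 41.0 CPM in WT, at 29.4, 26.9 and 20.9 in ISL1-/-, at 28.0, 23.7 and 6.85 in PAX6-/- and at 21.9 and 12.0 in PDX1-/-. All 4 WT libraries lay above all knockout libraries. Only the fall in PDX1-/- passed the test (-2.17, SE 0.45, adjusted p = 0.00523), and it was lost without replicate 1 of WT with BFP (0.0718). Values in ISL1-/- and PAX6-/- were -1.26 and -1.22 (adjusted p = 0.114 and 0.128), and both passed without the high-mitochondrial libraries (-1.24 and -1.23, adjusted p = 0.00388 and 0.00392).

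EPHA5, an A-class receptor, was low in WT. It stood at 2.66 and 2.75 CPM in WT with BFP, at 10.8, 10.2 and 8.24 in ISL1-/-, at 23, 10.1 and 13.0 in PAX6-/- and at 6.85, 6.71 and 7.25 in PDX1-/-. Libraries given ISL1 held 2.35 and 1.5 CPM of EPHA5 in WT, 11.2, 13.4 and 9.20 in ISL1-/-, 15.7, 11.2 and 8.09 in PAX6-/- and 15.9 and 1.16 in PDX1-/-. Apart from the library of PDX1-/- with ISL1 at 1.16 CPM, which has a high mitochondrial share, every knockout library exceeded every WT library. The rise passed in PAX6-/- (2.50, SE 0.67, adjusted p = 0.0366), lost without either WT library or replicate 1 or 3 of PAX6-/- with BFP (up to 0.261). It was 1.85 in ISL1-/- and 1.36 in PDX1-/- (adjusted p = 0.114 and 0.221).

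EPHA10, an Eph receptor without kinase activity, stood at 1.16 and 1.78 CPM in WT with BFP, at 3.19, 2.56 and 4.34 in ISL1-/-, at 7.30, 6.17 and 6.88 in PAX6-/- and at 4.40, 1.20 and 3.56 in PDX1-/-. EPHA10 with the ISL1 virus stood at 2.33 and 1.85 CPM in WT, at 2.06, 3.52 and 2.61 in ISL1-/-, at 3.22, 4.39 and 1.72 in PAX6-/- and at 2.84 and 0.741 in PDX1-/-. PAX6-/- with BFP held the 3 highest values, and its rise against WT was 2.21 (log2, SE 0.57, adjusted p = 0.0311), lost without any 1 of the 5 libraries compared (up to 0.298). EPHA8 was lower in ISL1-/- than in PAX6-/- by -1.44 (SE 0.34, adjusted p = 0.0272), lost without any library of ISL1-/- or replicate 1 or 3 of PAX6-/- (up to 0.147). The mean virus effects on EPHA7 and EPHB1 were 1.33 (SE 0.35, adjusted p = 0.022) and -0.76 (SE 0.19, adjusted p = 0.0179), the former lost without replicate 2 of PDX1-/- with ISL1 or replicate 3 of WT with BFP (up to 0.0827) but 1.66 (adjusted p = 4.27e-06) without both high-mitochondrial libraries, and the latter lost without replicate 1 of either WT group (up to 0.0672). EPHA7 stood at 62.5 and 8.21 CPM in the libraries of PDX1-/- with ISL1. EPHB3 differed across the 8 groups (adjusted p = 0.0375) and in no pairwise comparison, and EPHA1, EPHB2, EPHB4 and EPHB6 passed in none with all 21 libraries. Without the high-mitochondrial pair those 4 had mean virus effects of -0.26, 0.36, 0.76 and 0.97 (adjusted p = 0.0198, 0.00428, 0.00124 and 1.58e-06), and EPHB3 was higher than in WT by 1.3 in ISL1-/- and 1.55 in PDX1-/- (adjusted p = 0.000466 and 6.38e-05).

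**Figure D4:**
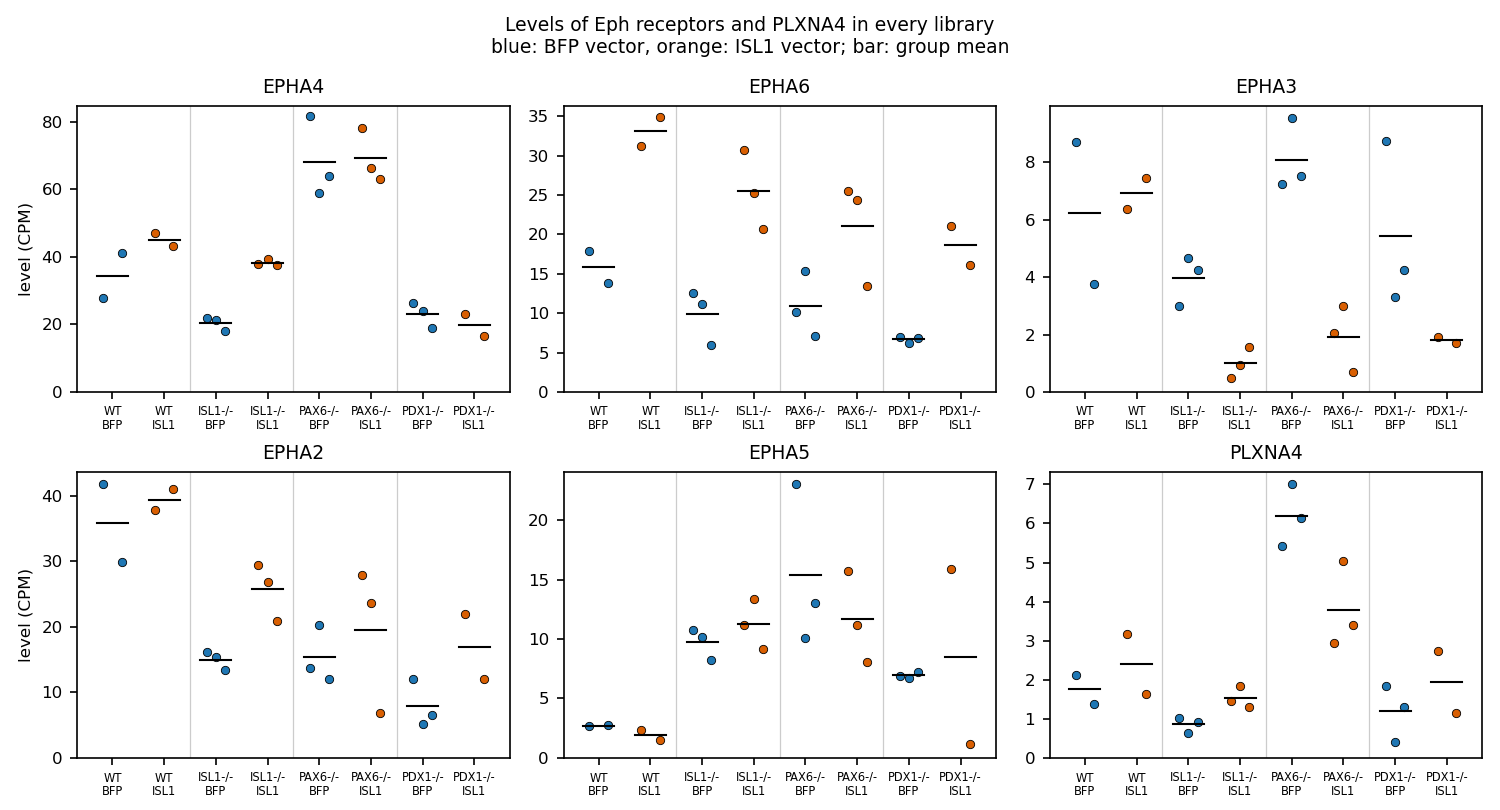
Levels of EPHA4, EPHA6, EPHA3, EPHA2, EPHA5 and PLXNA4 in every library, in CPM, with blue points for BFP, orange points for the ISL1 virus and a bar at each group mean. EPHA4 is highest in PAX6-/- with either virus (59.0 to 81.5 CPM), and EPHA6 lies higher with the ISL1 virus than with BFP in WT (31.2 and 34.9 against 17.9 and 13.8 CPM).

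Of the 8 ephrins, 4 were called in a pairwise comparison. EFNA5, a lipid-anchored ephrin, stood at 15.0 and 13.5 CPM in WT with BFP, at 11.8, 12.6 and 10.3 in ISL1-/-, at 10.7, 10.6 and 7.90 in PAX6-/- and at 18.8, 16.4 and 15.7 in PDX1-/-. The ISL1-virus libraries had EFNA5 at 14.5 and 13.1 CPM in WT, at 11.2, 12.4 and 10.5 in ISL1-/-, at 9.25, 10.1 and 7.36 in PAX6-/- and at 11.6 and 10.2 in PDX1-/-. Its 3 highest values were those of PDX1-/- with BFP and its 4 lowest were PAX6-/- libraries, and the difference between these groups with BFP was -0.80 (log2, SE 0.18, adjusted p = 0.0204). The call was lost without replicate 3 of PAX6-/- or replicate 1 or 2 of PDX1-/- (up to 0.104).

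EFNA4 stood at 9.53 and 12.2 CPM in WT with BFP, at 13.8, 9.58 and 10.9 in ISL1-/-, at 9.33, 11.2 and 10.9 in PAX6-/- and at 6.02, 7.39 and 6.73 in PDX1-/-. EFNA4 was, under the ISL1 virus, at 8.06 and 13.0 CPM in WT, at 16.7, 15.5 and 16.1 in ISL1-/-, at 15.0, 13.8 and 29.1 in PAX6-/- and at 13.6 and 29.9 in PDX1-/-. In every knockout the libraries with ISL1 lay above those with BFP, and the values of 29.1 and 29.9 CPM are those of the libraries with high mitochondrial shares. The effect passed in PDX1-/- (1.69, SE 0.33, adjusted p = 0.00474). It was lost without replicate 4 of PDX1-/- with ISL1, at 1.02, and was 1.04 without both high-mitochondrial libraries. Each of these fits leaves a single library of PDX1-/- with ISL1. The mean virus effect was 0.75 (SE 0.16, adjusted p = 0.00755), with 3 of 4 genotypes higher, and 0.47 (adjusted p = 0.00297) without that pair.

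EFNA3 rose in PDX1-/- against WT by 1.48 (SE 0.40, adjusted p = 0.0257) and fell with the ISL1 virus in PDX1-/- by -1.32 (SE 0.39, adjusted p = 0.0374). Its levels were 4.13 and 5.65 CPM in WT with BFP, 11.2, 14.2 and 15.4 in PDX1-/- with BFP and 7.39 and 3.47 in PDX1-/- with ISL1. The first call was lost without either library of WT with BFP or replicate 2 or 3 of PDX1-/- with BFP. The second was lost without any 1 library of PDX1-/- with BFP or of WT with ISL1, or without replicate 4 of PDX1-/- with ISL1. Without the high-mitochondrial pair, which leaves a single library of PDX1-/- with ISL1, its value was -0.85. EFNA3 and EFNA4 share 43.9% and 15.0% of their exon bases with the readthrough gene EFNA4-EFNA3, which had 0 counts in all libraries, so reads there may not have been assigned. EFNB3, a transmembrane ephrin, stood at 57.7, 45.0 and 69.2 CPM in PAX6-/- with BFP and at 16.1 and 17.6 in WT with BFP. That rise was 1.77 (SE 0.45, adjusted p = 0.0291), lost without either WT library or replicate 1 or 3 of PAX6-/- (up to 0.241). EFNA1, EFNA2, EFNB1 and EFNB2 passed in none of the comparisons with all 21 libraries. With both high-mitochondrial libraries left out, EFNA1, EFNA2 and EFNB1 differed across the 8 groups (adjusted p = 0.000258, 0.00415 and 4.36e-05), EFNB1 had a mean virus effect of 0.93 (adjusted p = 1.45e-05), and EFNB2 was higher in ISL1-/- than in PDX1-/- by 0.92 (adjusted p = 0.0212).

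For Slits and Robo receptors, no pairwise comparison of the 21 libraries called any of the 3 Slits or the 3 tested Robo receptors. SLIT1 alone of the Slits differed across the 8 groups (adjusted p = 0.0466), with group means from 7.06 ± 1.59 CPM (SD, n = 3) in PAX6-/- with ISL1 to 23.1 ± 6.52 (SD, n = 3) in PDX1-/- with BFP. ROBO3, a divergent Robo receptor that lets commissural axons cross the midline, rose with the ISL1 virus on average by 1.02 (log2, SE 0.18, adjusted p = 0.00203), in 4 of 4 genotypes and in all 21 fits that left out 1 library. ROBO3 went from 1.11 ± 0.202 CPM (SD, n = 2) to 2.59 ± 0.342 (n = 2) in WT and from 1.68 ± 0.485 (n = 3) to 3.31 ± 0.242 (n = 3) in ISL1-/-. In PAX6-/- the means were 1.23 ± 0.588 (n = 3) and 2.31 ± 0.618 CPM (n = 3), and in PDX1-/- 1.11 ± 0.282 (n = 3) and 2.20 ± 0.304 (n = 2). ROBO1 had the highest level per exon length of the family, at 6.31 CPM per kb (0.877 to 15.1), and was not called with all 21 libraries. With both high-mitochondrial libraries left out, ROBO1 had a mean virus effect of 0.91 (adjusted p = 0.000238) and was higher in PAX6-/- than in WT by 1.52 (adjusted p = 0.00101), and SLIT3 was lower than in WT by -1.85 in ISL1-/- and -1.91 in PDX1-/- (adjusted p = 0.0106 and 0.00724).

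Genes that act with these ligands and receptors were taken from a fixed list of 50, of which 49 were tested. Against WT, 3 were higher in ISL1-/- (RGMA, DPYSL4 and DPYSL5), 9 higher and 2 lower in PAX6-/-, and 11 higher and 5 lower in PDX1-/-, against 5.59%, 5.51% and 9.68% of all genes. With that high-mitochondrial pair left out, 21 were higher and 7 lower in ISL1-/-, 20 and 9 in PAX6-/- and 22 and 10 in PDX1-/-, against 23.5%, 23.5% and 27.6% of all genes. RGMA, a repulsive cue that binds neogenin, was higher by 1.59, 1.80 and 1.01 on the log2 scale in ISL1-/-, PAX6-/- and PDX1-/- (adjusted p = 0.00424, 0.00256 and 0.0384). DPYSL4 and DPYSL5, cytosolic phosphoproteins of the collapsin response, were also higher in all 3 (DPYSL4 by 1.14, 1.63 and 1.11 and DPYSL5 by 2.00, 2.28 and 2.35). NTNG1, a membrane-anchored netrin, was lower in PAX6-/- by -3.02 (SE 0.32, adjusted p = 5.65e-05) and in PDX1-/- by -1.28 (SE 0.31, adjusted p = 0.0141). CHL1, an L1-family adhesion molecule, was higher in PAX6-/- than in WT by 2.36 (SE 0.35, adjusted p = 0.0011) and than in PDX1-/- by 3.12 (SE 0.31, adjusted p = 2.47e-05). Of the same list, 2 (RHOD and ENAH) were higher and 10 lower with the ISL1 virus in PDX1-/-, against 12.5% of all genes, and edgeR called none in the other genotypes. Without the high-mitochondrial pair 2, 7 and 7 passed in WT, ISL1-/- and PAX6-/-, against 1.32%, 4.93% and 4.97% of all genes. On average over genotypes 2 were higher and 10 lower, against 9.61% of all genes (6 and 14 without that pair), among them PAK3, a kinase downstream of Rac (-1.05, SE 0.18, adjusted p = 0.00134), and FLRT3, which binds UNC5 receptors (-0.78, SE 0.11, adjusted p = 0.000253).

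Genes of islet cell types and of other cell types moved beside these results. Against WT, 4 of 9 alpha-cell genes were lower in ISL1-/- and 2 in PAX6-/-, and 1 was higher and 1 lower in PDX1-/-. Of 9 beta-cell genes 4, 4 and 5 were lower in ISL1-/-, PAX6-/- and PDX1-/- (1, 0 and 2 higher), and of 5 delta-cell genes 4, 3 and 2 were lower. Of 4 epsilon-cell genes 3 were higher in PAX6-/-, where their sum was 3080 to 4630 CPM against 194 to 214 in WT with BFP. Liver genes were lower for 1, 3 and 3 of 4, with sums of 13300 to 15300 CPM in WT, 6110 to 8610 in ISL1-/-, 4720 to 6460 in PAX6-/- and 3410 to 3860 in PDX1-/-, and 2 of 4 gut genes were lower in each knockout. Endothelium genes were lower for 0, 3 and 2 of 7, with sums of 116 to 125 CPM in WT, 43.2 to 47.3 in ISL1-/-, 33.2 to 35.5 in PAX6-/- and 46.7 to 59.1 in PDX1-/-, and PECAM1 at 0 counts in 8 libraries. Of 6 enterochromaffin genes 3, 1 and 4 were higher, and of 9 neuron genes 1, 1 and 2 (1 lower in ISL1-/-). Of 7 endocrine progenitor genes 0, 4 and 2 were higher. Of all genes, 5.59%, 5.51% and 9.68% were called in these 3 comparisons with WT. With the ISL1 virus in PDX1-/-, 4 of 4 liver genes, 3 of 5 delta-cell genes and 3 of 6 cell cycle genes were higher and 4 of 6 enterochromaffin genes lower. Of 9 beta-cell genes 3 were higher and 2 lower there, and 12.5% of all genes were called. On average over genotypes 6 of 6 enterochromaffin and 3 of 7 general endocrine genes were lower with the virus, and 3 of 6 cell cycle, 3 of 5 delta-cell and 2 of 9 neuron genes higher, against 9.61% of all genes. Without both high-mitochondrial libraries, 4 of 4 liver genes and 3 of 7 endothelium genes were lower in each knockout (1 endothelium gene higher in PAX6-/- and in PDX1-/-). The shares of all genes called were then 23.5%, 23.5% and 27.6% in ISL1-/-, PAX6-/- and PDX1-/-. In that fit 3 neuron genes were higher and 4 lower with the virus on average, and 6 of 6 cell cycle genes were higher and 6 of 6 enterochromaffin genes lower. These counts compare with 23.5% of all genes and rest in part on a single library of PDX1-/- with ISL1. The part of all these cell types in the results was not tested. Of the 52 pairwise calls, 15 passed in all 21 fits that left out 1 library, and they belong to 7 genes (UNC5C, UNC5D, SEMA3B, SEMA6B, EPHA4, EPHA6 and PLXNA4). Some of these fits leave a single library in a WT group or in PDX1-/- with ISL1. EPHA6 is among the 7 only through the virus effect in PDX1-/-, and UNC5D and SEMA3B have such calls too. In that comparison limma voom with quality weights and the fit of only the groups compared called no guidance gene.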

How the data were processed

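RNA-seq counts per gene were deposited by the authors as 1 table for 21 libraries of stem-cell-derived islets. Per the submitters' processing notes, STAR 2.7.11b, featureCounts 2.1.1 and GRCh38 were used, and the strand setting is not given in the sources used here. Per the labels, SMART-Seq v4 amplified the RNA. Of 62700 genes, 62699 were used, with ANK2 left out because its row is split across 3 lines.

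All 8 groups were fitted in 1 model with edgeR 4.0.16 (R 4.3.3): TMM normalisation, genes kept by filterByExpr (minimum count 10, minimum total count 15), and the quasi-likelihood F test with Benjamini-Hochberg adjustment within each comparison at 0.05. This left 25884 genes and a common biological coefficient of variation of 0.334. Log2 fold changes use a prior count of 0.125, and the SE is the fold change divided by the square root of F. CPM are counts scaled to the TMM-adjusted library size. Libraries held 36807615 to 60199880 counts.

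The members and lists were chosen with earlier results of these data known. Genes described in every library are up to 3 with the largest rise and fall in each pairwise comparison (adjusted p under 0.05, higher group at 1 CPM or more) and the 5 with the highest level per exon length. EPHA3, SEMA3A, ROBO3 and others with library values were named after their values were seen. The mean ISL1 effect, its differences from WT and the fit without both high-mitochondrial libraries were added after the data were examined.

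Replicate numbers were checked for pairing by correlating the deviations of same-numbered libraries from their group means. For the ISL1 virus these correlations were 0.348 to 0.689 in ISL1-/- and 0.274 to 0.56 in PAX6-/-. Libraries of unlike number were not compared, so these values do not show that the numbers pair libraries. Alternatives were DESeq2 1.42.0 and its size factors, no filter, limma 3.58.1 voom with quality weights, replicate blocks, only the groups compared, and each library left out. The fit was tested on simulated data. Reads of exons shared with another gene may be lost or misassigned. UNC5D is described without sequence.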

Additional observations from a re-analysis of the deposited data

Results flagged for a closer look

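The effect of the ISL1 virus on UNC5D differed between PDX1-/- and WT, by -2.06 (log2, SE 0.44, adjusted p = 0.0299 by edgeR's quasi-likelihood test of the difference itself, over all genes tested). UNC5D was lower with ISL1 than with BFP in PDX1-/- (16.2 and 8.41 against 50, 35.8 and 49.9 CPM) and overlapped between the viruses in WT (18.7 and 12.9 against 15.1 and 12.7 CPM). The difference was -2.03 with DESeq2 (adjusted p = 0.000905). Without both high-mitochondrial libraries the difference was -1.63, from a single library of PDX1-/- with ISL1. It did not pass with voom (-2.12, adjusted p = 0.461), with a block for the description number (-1.61, adjusted p = 0.14) or when only the groups compared were fitted (-2.03, adjusted p = 0.256). The same difference in ISL1-/- and PAX6-/- was -1.24 and -1.49 (adjusted p = 1.0 and 0.894).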

How the results depend on the processing

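No call changed direction under any alternative run. Counts below are numbers of guidance genes called. They are ordered as ISL1-/-, PAX6-/- and PDX1-/- against WT, ISL1-/- against PAX6-/- and against PDX1-/-, PAX6-/- against PDX1-/-, then the ISL1 virus in WT, ISL1-/-, PAX6-/- and PDX1-/-, and only those that moved by over 1.5 times are given for each alternative. The reported counts were 6, 8, 8, 7, 2, 9, 0, 1, 1 and 10. DESeq2 gave 10 and 15 for ISL1-/- and PAX6-/- against WT, 8 and 15 for ISL1-/- and PAX6-/- against PDX1-/-, and 5, 3 and 16 for the virus in ISL1-/-, PAX6-/- and PDX1-/-. It gave 1 and 5 for the differences of the virus effect from WT in ISL1-/- and PDX1-/-, against 0.0889% and 4.37% of all genes. Voom with quality weights gave 28, 30, 36, 24, 27, 27, 5, 13, 14 and 0. It then gave 2, 2 and 0 for the 3 differences and 63 across the 8 groups, against 0.58%, 0.525%, 0.17% and 59.0% of all genes. Fitting only the groups compared gave 32, 28, 30, 18, 25, 22, 2, 14, 0 and 0, then 2 and 0 for the differences in ISL1-/- and PDX1-/-, against 0.443% and 0.0% of all genes. Without both high-mitochondrial libraries the counts were 29, 30, 32, 19, 27, 29, 4, 11 and 8, and 2 for the difference in ISL1-/-. That fit leaves a single library of PDX1-/- with ISL1. No count is therefore given for the virus in PDX1-/- or for its difference from WT. The 27 for the mean virus effect and the 62 across the 8 groups rest in part on that library. Without a filter, ISL1-/- against PDX1-/- gave 5 and the virus in ISL1-/- and PAX6-/- 3 and 2 (2.73%, 0.32% and 0.244% of all genes). A replicate block by description number gave 14, 20 and 19 against WT (12.2%, 13.0% and 17.7% of all genes). It gave 11 and 17 for ISL1-/- and PAX6-/- against PDX1-/- (11.5% and 7.68%), and 1, 4 and 5 for the virus in WT, ISL1-/- and PAX6-/- (0.189%, 1.87% and 2.23%). Its counts for the virus in PDX1-/- are not given, since it fits replicate 4 there by itself. A block by title number gave 6 for ISL1-/- against PDX1-/- and 3 for the virus in ISL1-/- (5.94% and 0.464%). No label says that libraries with the same number belong together. Leaving out 1 library gave 3 to 12, 1 to 15, 2 to 15, 3 to 9, 1 to 9, 2 to 16, 0 to 0, 1 to 5, 0 to 3 and 4 to 39, then 8 to 29 for the mean, 0 to 0, 0 to 0 and 0 to 35 for the differences and 21 to 57 across the 8 groups. Of all genes, 12.4% to 32.2% were called in the comparisons of genotypes with voom, 7.26% to 30.6% when only the groups compared were fitted and 4.12% to 13.6% with DESeq2. For the virus in WT, ISL1-/-, PAX6-/- and PDX1-/- these shares were 2.01%, 8.19%, 9.96% and 0.085%, then 1.47%, 6.46%, 0.0% and 0.0%, then 0.243%, 1.46%, 1.79% and 18.9%. The cause of these shifts was not tested. Of 65 single calls, 65 were kept with DESeq2 and with its size factors, 57 without a filter, 55 and 60 with the blocks and 51 with voom. Fitting only the groups compared, which leaves out the mean virus effect, kept 41 calls and lost 12.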
